A study of Mus musculus with 12 samples.

Results

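Astragaloside IV (ASIV), a plant saponin isolated from Astragalus, was compared with its DMSO vehicle in the medial prefrontal cortex (mPFC) of C57 mice. The comparison holds 6 of the 12 RNA-seq libraries of the series, 3 from C57 mice given DMSO (C57 vehicle) and 3 from C57 mice given ASIV (C57 ASIV). All 6 carry the genotype label WT, and both groups received intraperitoneal injections for 7 days. The other 6 libraries come from BTBR mice, inbred mice with autism-like behaviour, given the same 2 injections. The labels used here name no dose, age or sex, and nothing in the labels says whether a library is 1 animal or a pool, so the tests measure the spread between libraries, which may in part be technical. Of the genes in the deposited table, 13586 were tested, those reaching an FPKM (fragments per kilobase, scaled to library depth) of 1 in at least 3 of 12 libraries, on the log2(FPKM + 1) scale. The comparison asks what ASIV does in the reference strain.

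The mPFC is a layered cortical region in which excitatory pyramidal neurons and inhibitory interneurons, supported by astrocytes, microglia and oligodendrocytes, serve social behaviour and decision making. Active neurons induce immediate early genes, transcription factors and signalling regulators that are transcribed within minutes without new protein synthesis. Pyramidal neurons hold much CaMKII, a calcium-activated kinase of the postsynaptic density, whose activity is limited by the inhibitor proteins encoded by Camk2n1 and Camk2n2. The series title names CAMK2N2, oxidative phosphorylation and neurotransmission in BTBR mice.

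The FPKM steps of the C57 libraries gave scaling depths of 16257019 to 18660039 fragments. These depths are approximate, since fragments recovered over all genes did not sum to them. The sum was 19338679 against 18660039 in C57 vehicle replicate 1 and 18064507 against 18439737 in C57 ASIV replicate 1. Cortical genes were present throughout: Slc17a7, the vesicular glutamate transporter of cortical pyramidal neurons, ran from 311.1 to 393.6 FPKM, and Ttr, the defining choroid plexus gene, from 0.138 to 0.606 FPKM. Genes of neighbouring regions differed between libraries of the same group. The 13 striatal markers summed to 103.8, 131.8 and 278.1 FPKM in C57 vehicle replicates 1, 2 and 3 and to 94.9, 96.7 and 328 FPKM in C57 ASIV. Replicate 3 of each group was thus high. Drd2, the D2 dopamine receptor of striatal neurons, stood at 0.589, 0.788 and 6.64 FPKM under vehicle and at 0.490, 0.483 and 7.91 FPKM under ASIV. A list of 10 olfactory bulb genes, added after seeing the data, was instead lowest in replicate 3 of each group. It summed to 52.5, 112.3 and 42.5 FPKM under vehicle and to 146.7, 117.6 and 24.7 FPKM under ASIV. Omp, the olfactory marker protein, was at 2.15, 4.68 and 1.52 FPKM under vehicle and at 6.93, 5.51 and 0.250 FPKM under ASIV. The first principal component of the 6 libraries held 38.3% of the variance and set C57 ASIV replicate 3 apart at -23.4. Values without both replicates 3, and from fits with either list as a covariate, are given for some results below. They do not isolate the part of the regional genes. Without both replicates 3, the olfactory bulb list was left at 52.5 and 112.3 FPKM under vehicle and 146.7 and 117.6 FPKM under ASIV, split by treatment.

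**Figure D1:**
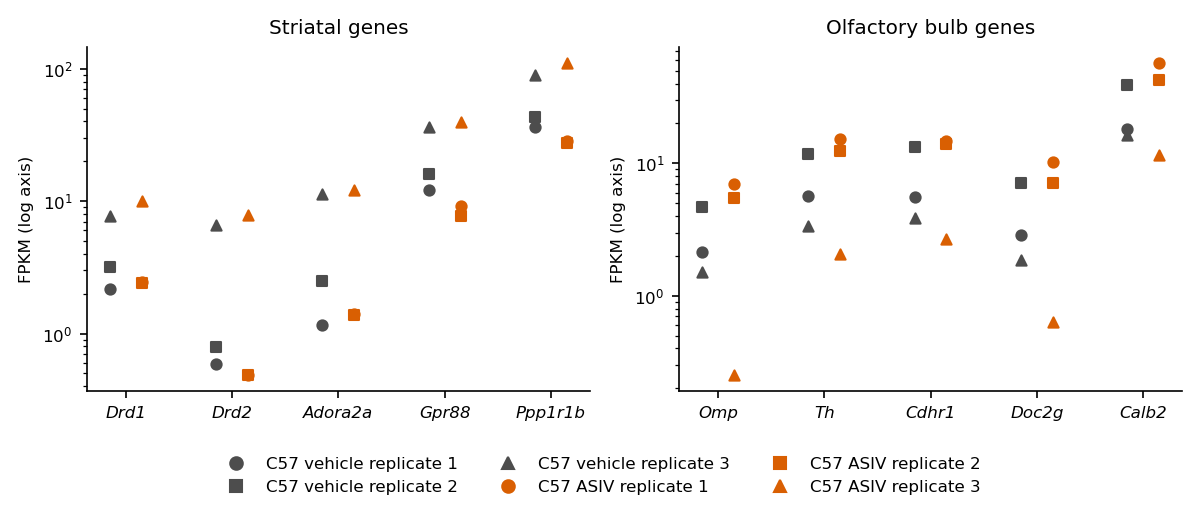
FPKM (log axis) of 5 striatal and 5 olfactory bulb genes in each of the 6 C57 libraries, with 1 symbol per replicate and colour for treatment. Replicate 3 of both groups is highest for the striatal genes and lowest for the olfactory bulb genes.

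No gene passed the test for ASIV against vehicle in C57. In limma 0 of 13586 genes (percent called 0) had an adjusted p under 0.05, and the smallest adjusted p was 0.370, for Nr4a3. An unadjusted p under 0.05 was reached by 890 genes (6.55% of those tested), where 679 would reach it on average with no difference at all. Of these, 346 were higher under ASIV (2.55%) and 544 lower (4%). Refitted on recovered fragments with voom, 1 gene passed, and with weights for library quality 1, the same gene in both: Nr4a3. Without both replicates 3, limma again called 0 genes, with 956 at an unadjusted p under 0.05.

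Intervals of the differences on the log2(FPKM + 1) scale, which understates the change of low genes, bounded the size of a response. The median standard error of a log2 difference was 0.098. For 13395 genes (98.59%) the 95% confidence interval of the difference, taken gene by gene, lay inside a 2-fold change, and for 12582 (92.61%) inside a 1.5-fold change of FPKM + 1. With a pseudocount of 0.1 the first count was 12875, and with voom it was 12654 of 13569 genes. Observed differences of FPKM + 1 reached 1.5-fold in 40 genes and 2-fold in 2, whereas the ratio of mean FPKM, without the added 1, reached 2 in 36 genes, 19 higher and 17 lower. The 2 genes at 2-fold of FPKM + 1, named after their values were seen, were ENSMUSG00000095247, without a symbol, at a log2 difference of 1.29 ± 0.36 (SE), and the predicted gene Gm49326 at -1.04 ± 0.34. The median log2 difference of all genes tested was 0.0019.

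All 3 ASIV libraries lay above all 3 vehicle libraries in 834 genes (6.14%) and below them in 948 genes (6.98%). These shares, the 50.8% of genes with a log2 difference above 0 and the 49.2% below 0 are the background for the gene groups that follow. The genes named first are the 10 with the smallest p in each direction, none of which passed. Symbols with Gm, Rik, -ps or mt- and genes without a symbol were left out of this choice.

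**Figure D2:**
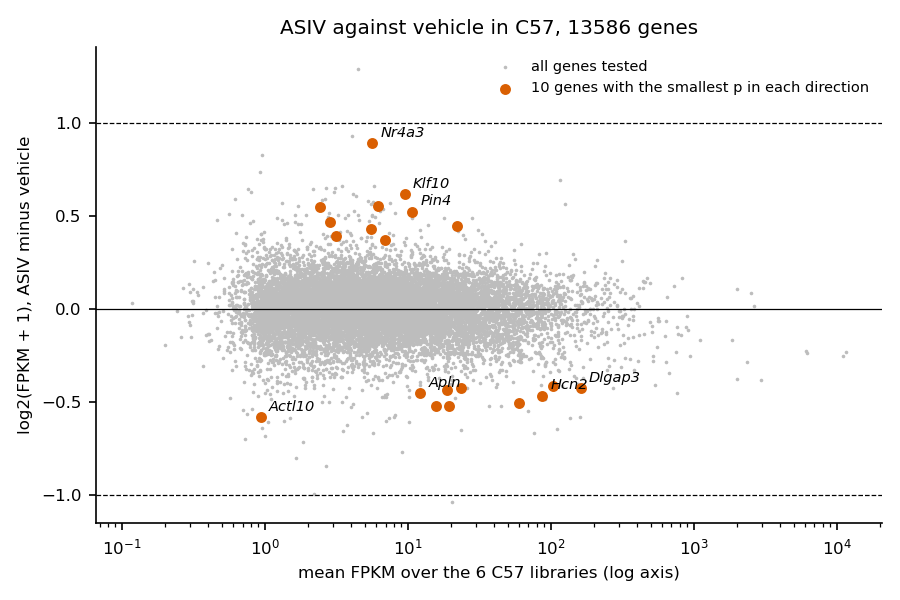
Log2(FPKM + 1) difference, ASIV minus vehicle in C57, against the mean FPKM of the 6 libraries (log axis), with 1 point per gene. The 10 genes of smallest p in each direction, after the exclusions by symbol, are in colour. The dashed lines mark a 2-fold change of FPKM + 1, which 2 of 13586 genes reach, and Nr4a3 at 0.89 is the highest of the coloured genes.

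Nr4a3 had the smallest p. It encodes an orphan nuclear receptor of the NR4A family, which is induced as an immediate early gene by cAMP and calcium signals. Nr4a3 (chromosome 4, 48045153 to 48086447, plus strand, GRCm38) was at 3.08, 4.14 and 3.80 FPKM under vehicle and at 7.90, 8.33 and 6.74 FPKM under ASIV. The lowest ASIV library lay well above the highest vehicle library. The log2 difference was 0.89 ± 0.11 (SE), with a 95% interval of 0.64 to 1.14 and an adjusted p of 0.370. Over the 23 alternatives it ranged from 0.80 to 1.07. It passed with voom (1.07, adjusted p = 0.0272), with library weights (0.95, adjusted p = 0.0332) and with the olfactory bulb genes as a covariate (0.87, adjusted p = 0.045), and in no other alternative.

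Its promoter is shown beside that of its family member Nr4a1 because both hold repeated copies of a short motif of the cAMP response element (CRE), the DNA element bound by CREB. The sequences are from RefSeq (build GRCm38.p6), read 5′ to 3′ on the plus strand, with that motif (TGACG, or CGTCA on the other strand) in capitals. The Nr4a3 stretch ends before the first exon that GENCODE M21 annotates, and the Nr4a1 stretch is 250 bases before the RefSeq start.
Nr4a3, chr4:48045055-48045152: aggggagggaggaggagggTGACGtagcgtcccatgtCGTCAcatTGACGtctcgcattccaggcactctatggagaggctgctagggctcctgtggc
Nr4a1, chr15:101266596-101266845: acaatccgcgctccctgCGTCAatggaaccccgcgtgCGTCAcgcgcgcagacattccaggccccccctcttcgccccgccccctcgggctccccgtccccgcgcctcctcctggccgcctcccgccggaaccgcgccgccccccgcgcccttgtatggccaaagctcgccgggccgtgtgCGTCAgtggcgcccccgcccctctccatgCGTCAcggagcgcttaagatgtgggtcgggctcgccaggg

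The 250 bases before each RefSeq start hold 4 copies in Nr4a3, 3 of them in the stretch shown, and 4 in Nr4a1. Among 32851 promoters of the same length in that table, 17.77% hold at least 1 copy and 0.137% (45 promoters) at least 4. Of the 23 immediate early genes of the list with a promoter in the table, 3 reach 4 copies in a promoter, Nr4a3 among them. This counts genes rather than promoters, and Nr4a3 was shown for its copies, so it is not comparable with the share of promoters. The full CRE, TGACGTCA, which contains a copy on each strand, occurs in 1.546% of promoters. Nr4a1, chosen here for its promoter after its values were seen, stood at 24.5, 38.4 and 35.2 FPKM under vehicle and at 47.9, 39.9 and 34.0 FPKM under ASIV. Its groups overlapped, and its log2 difference was 0.31 ± 0.18. Whether the motif has a part in the level of either gene was not tested.

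Among 29 immediate early genes tested, 22 had a log2 difference above 0. Of the 29, 7 lay without overlap above vehicle (6.14% of all genes did), with 0 below and 0 called. The median difference was 0.19, against 0.0019 over all genes tested. After Nr4a3 the smallest p belonged to Klf10, Bdnf and Fosb. Klf10, a zinc-finger repressor induced by TGF-beta (chromosome 15, 38291463 to 38300706, minus strand), was at 6.53, 8.06 and 7.36 FPKM under vehicle and at 10.6, 12.2 and 12.4 FPKM under ASIV. That is a log2 difference of 0.62 ± 0.09 with an adjusted p of 0.395, and the groups did not overlap. Bdnf, the brain-derived neurotrophic factor, ran from 2.58 to 3.31 FPKM under vehicle and from 3.79 to 4.99 FPKM under ASIV (0.42 ± 0.11). Fosb, a subunit of the AP-1 transcription factor, ran from 2.70 to 3.63 and from 4.02 to 4.59 FPKM (0.37 ± 0.10).

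Other members, named after their values were seen, showed no such separation. Fos, the best known marker of recent activity, was at 10.1, 17.7 and 13.4 FPKM under vehicle and at 16.1, 16.5 and 16.2 FPKM under ASIV. Npas4, which answers to calcium entry in neurons, had a log2 difference of -0.31, and Arc, an effector at the synapse, one of 0.19. C57 vehicle replicate 1 was the lowest library for the list, with a median deviation of -0.31 from the mean of the 6 libraries, and the other 5 lay between -0.01 and 0.18. Without it the list median was 0.08, and over all settings the median ran from 0.08 to 0.27.

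**Figure D3:**
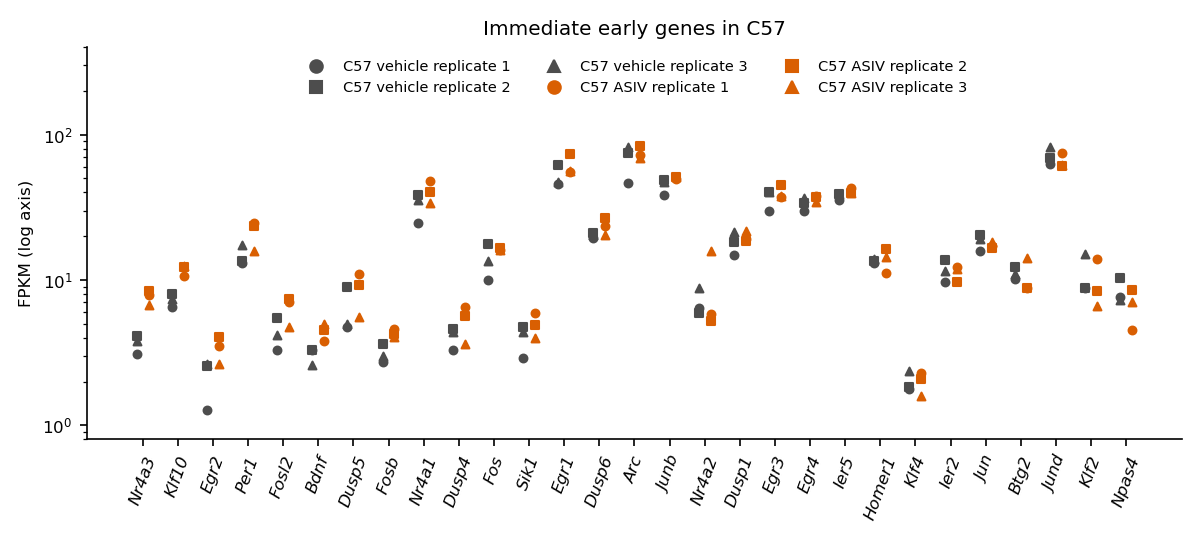
FPKM (log axis) of the 29 immediate early genes in each C57 library, ordered by log2 difference, with 1 symbol per replicate and colour for treatment. Nr4a3 and Klf10 separate the groups, most genes further right overlap, and C57 vehicle replicate 1 is often the lowest point.

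The other genes of smallest p that were higher under ASIV belonged to several functions. Pin4, a peptidyl-prolyl isomerase, was at 8.73, 7.85 and 9.26 FPKM under vehicle and at 12.2, 12.8 and 13.4 FPKM under ASIV (log2 difference 0.52 ± 0.08). Grp, which encodes gastrin-releasing peptide, a neuropeptide, ran from 4.76 to 4.94 FPKM under vehicle and from 6.86 to 8.65 FPKM under ASIV (0.55 ± 0.09). Snrpd1, a core protein of spliceosomal particles, ran from 16.4 to 20.4 and from 24.4 to 27.8 FPKM (0.45 ± 0.10). In these 3 genes every ASIV library was above every vehicle library.

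Pcsk1, a protease that matures neuropeptides and hormones, had a log2 difference of 0.37 ± 0.08, and Cbln1, a secreted synapse organizer, one of 0.39 ± 0.08. Rasl11a, a small GTPase, stood at 0.55 ± 0.12, Pstpip2, an actin-associated adaptor, at 0.47 ± 0.09 and Plk3, a stress-responsive kinase, at 0.43 ± 0.10. All 5 had levels of at most 8.10 FPKM in every library, groups without overlap, and adjusted p-values from 0.458 to 0.721.

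The genes of smallest p that were lower under ASIV included synaptic and neuronal genes at higher levels. Hcn2, a pacemaker channel of the hyperpolarization-activated family (chromosome 10, 79716634 to 79736108, plus strand), was at 95.5, 103.5 and 103.5 FPKM under vehicle and at 77.6, 71.0 and 69.8 FPKM under ASIV. Its log2 difference was -0.47 ± 0.08 (adjusted p = 0.395). Dlgap3, a scaffold of the postsynaptic density that binds SHANK proteins, was at 178.8, 180.0 and 198.8 FPKM and at 143.7, 139.9 and 130.8 FPKM (-0.43 ± 0.08). In both genes every ASIV library lay below every vehicle library.

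Apln encodes apelin, a peptide ligand of the vasculature and brain. It was at 13.8, 13.8 and 15.4 FPKM under vehicle and at 10.4, 9.83 and 10.3 FPKM under ASIV (-0.45 ± 0.07). Plxnd1, a semaphorin receptor, stood at -0.52 ± 0.09, and Scrt1, a neuronal transcriptional repressor, at -0.50 ± 0.10. Nfic, a nuclear factor I protein, stood at -0.43 ± 0.08 and Zfpm1, a cofactor of GATA factors, at -0.52 ± 0.10. Fam107a, an actin-associated protein abundant in astrocytes, stood at -0.42 ± 0.08, Scrg1 at -0.44 ± 0.08 and Actl10, an actin-like gene with levels near the filter of 1 FPKM, at -0.58 ± 0.10. Over the 23 alternatives Hcn2 kept its sign between -0.51 and -0.31, the latter with the trend on GC content removed.

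The GC content of transcripts moved with the difference. Over 12131 nuclear protein-coding genes, Pearson's r between GC percent and the log2 difference was -0.386 (Spearman's rho -0.397), a description across genes of the same 6 libraries. The median difference was 0.07 in the fifth of genes lowest in GC (median 41.6%) and -0.07 in the fifth highest in GC (median 58.3%). Hcn2 has 65.4% GC, Dlgap3 63.9% and Zfpm1 66.8%, whereas Nr4a3 has 48.4% and Klf10 46.9%. With the trend removed in each library, limma still called 0 genes (681 at an unadjusted p under 0.05), Nr4a3 stood at 0.88 and Dlgap3 stood at -0.29. From low to high GC genes, median deviations from the 6-library mean ran from -0.076 to 0.071 in C57 vehicle replicate 3. In C57 ASIV replicates 1, 2 and 3 they ran from 0.0018 to -0.0039, 0.039 to -0.068 and 0.066 to -0.035. For log length, Pearson's r was -0.065. From shortest to longest genes, deviations ran from 0.117 to -0.074 in C57 ASIV replicate 3. In C57 ASIV replicate 2 they ran from -0.061 to 0.044, and other libraries stayed between -0.032 and 0.025. The part of GC content or length in single results beyond these values was not tested.

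The mitochondrial genome encodes proteins at the core of the respiratory chain, and none of its 13 mRNAs was called. They made up 12.9, 12.1 and 13.2% of summed FPKM under vehicle and 9.25, 12.5 and 12.5% under ASIV. The difference of means was -1.33 percentage points (exact two-sided permutation p = 0.3, where 3 against 3 libraries cannot go below 0.1). C57 ASIV replicate 1 alone was low, and without it the difference was -0.244.

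Of the 13, 11 had a log2 difference below 0 and none had groups without overlap. The median was -0.24, and 0.0006 without C57 ASIV replicate 1. mt-Nd2, a complex I subunit, was at 3527, 3267 and 3116 FPKM under vehicle and at 1690, 2994 and 3194 FPKM under ASIV (-0.38 ± 0.23). mt-Cytb, which codes for cytochrome b, stood at -0.24 ± 0.20, mt-Nd4 at -0.37 ± 0.32, mt-Nd5 at -0.29 ± 0.16, mt-Nd1 at -0.22 ± 0.17 and mt-Co1, of complex IV, at -0.23 ± 0.15. After quantile normalization mt-Co1 stood on the other side of 0, at 0.29. mt-Nd3 stood at -0.33 ± 0.22. mt-Nd6, encoded on the light strand, stood at 0.01 ± 0.11.

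The other mitochondrial mRNAs differed in their spread. mt-Nd4l was at 140.2, 166.7 and 70.6 FPKM under vehicle and at 23.7, 365.6 and 54.2 FPKM under ASIV, and its 95% interval ran from -3.28 to 2.11. mt-Co3 stood at -0.65 ± 0.49, mt-Atp6 at 0.18 ± 0.51, mt-Atp8 at -0.09 ± 0.47 and mt-Co2 at -0.01 ± 0.20. For 8 of the 13 the interval excluded a 2-fold change.

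The nuclear genes of oxidative phosphorylation lay on both sides of 0 over the 6 libraries. Of 36 complex I subunits 19 were above 0 (median 0.0042), of 26 subunits of complexes II to IV 13 (median 0.0060), and of 18 ATP synthase subunits 12 (median 0.045, and -0.041 without C57 ASIV replicate 3). None was called, and for every one of them the 95% interval excluded a 2-fold change. In C57 ASIV replicates 1, 2 and 3 the median deviation of complex I subunits from the mean of the 6 libraries was -0.09, -0.09 and 0.18. For complexes II to IV it was -0.04, -0.11 and 0.20. Over all settings the 2 list medians ran from -0.07 to 0.06 and from -0.10 to 0.08. Atp5a1, the alpha subunit of ATP synthase, ran from 260.0 to 267.4 FPKM under vehicle and from 273.6 to 298.4 FPKM under ASIV (0.14 ± 0.08).

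Of 13 genes of CaMKII subunits, inhibitors and calmodulin, 10 had a log2 difference below 0. Without overlap, 4 of the 13 lay below vehicle (6.98% of all genes did). Camk2n2, the inhibitor in the series title (chromosome 16, 20619215 to 20621287, minus strand), was at 153.9, 162.4 and 174.4 FPKM under vehicle and at 151.0, 116.1 and 117.4 FPKM under ASIV. Its log2 difference was -0.36 ± 0.11 (95% interval -0.62 to -0.10, adjusted p = 0.736). All ASIV libraries lay below vehicle, with C57 ASIV replicate 1 close to the lowest vehicle library. With the GC trend removed the difference was -0.22, and without C57 ASIV replicate 1 it was -0.48.

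Camk2n1, the other inhibitor, was at 711.9, 690.4 and 877.4 FPKM under vehicle and at 656.7, 562.2 and 568.7 FPKM under ASIV (-0.35 ± 0.12). Camk2a, the alpha subunit of the kinase, was at 601.9, 577.4 and 656.3 FPKM and at 483.9, 501.7 and 399.1 FPKM (-0.41 ± 0.11, adjusted p = 0.721). Camk2a, Camk2n1, Camk2n2 and Camkk2, an upstream kinase (-0.20 ± 0.07), are the 4 genes without overlap. Camk2b, the beta subunit, stood between 97.9 and 103.1 FPKM in all 6 libraries (-0.03 ± 0.07). Without both replicates 3, Camk2a stood at -0.26.

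Postsynaptic scaffolds and adhesion genes lay mostly below 0: 21 of 30, with 0 called and a median of -0.10. Without overlap, 10 of the 30 lay below vehicle (6.98% of all genes did) and 0 above (6.14% of all genes did). Shank1, a master scaffold of excitatory synapses, was at 82.9, 82.2 and 80.7 FPKM under vehicle and at 61.0, 63.9 and 44.2 FPKM under ASIV (-0.55 ± 0.13). Shank3, a related scaffold linked to autism in people, was at 49.99, 51.1 and 57.2 FPKM and at 42.4, 39.5 and 28.8 FPKM (-0.52 ± 0.14). In both genes C57 ASIV replicate 3 was the lowest library, and without both replicates 3 Shank3 stood at -0.30. Cntnap1, a contactin-associated adhesion protein, ran from 51.8 to 57.2 and from 42.5 to 43.0 FPKM (-0.33 ± 0.07). The median GC content of the list is 54.7%, and with the GC trend removed its median difference was -0.07.

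Sodium, calcium and pacemaker channels had 18 of 27 members below 0, 4 of them without overlap (6.98% of all genes were). These 4 include Hcn2, Cacna1a (-0.30 ± 0.08), the pore of P/Q-type calcium channels, and Cacnb3 (-0.25 ± 0.07), an auxiliary subunit. The other lists of transmission had small medians, and each changed sign when 1 library was left out: the GABA list without C57 vehicle replicate 3, C57 ASIV replicate 2 or C57 ASIV replicate 3, the glutamate list without C57 vehicle replicate 3, and the synaptic vesicle list without C57 ASIV replicate 1. GABA synthesis, transport and receptor genes had 13 of 22 above 0 (median 0.036), and glutamate receptors and transporters 15 of 27 (median 0.026). Among the latter 5 lay without overlap below vehicle (6.98% of all genes did). These 5 include Grin2c, an NMDA receptor subunit, at -0.43 ± 0.14, and Slc1a2, the main glutamate transporter of astrocytes, at -0.26 ± 0.10. Synaptic vesicle release genes had 14 of 30 above 0 (median -0.039), with Rims1, an active zone protein, at -0.21 ± 0.07. No member of these lists passed.

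**Figure D4:**
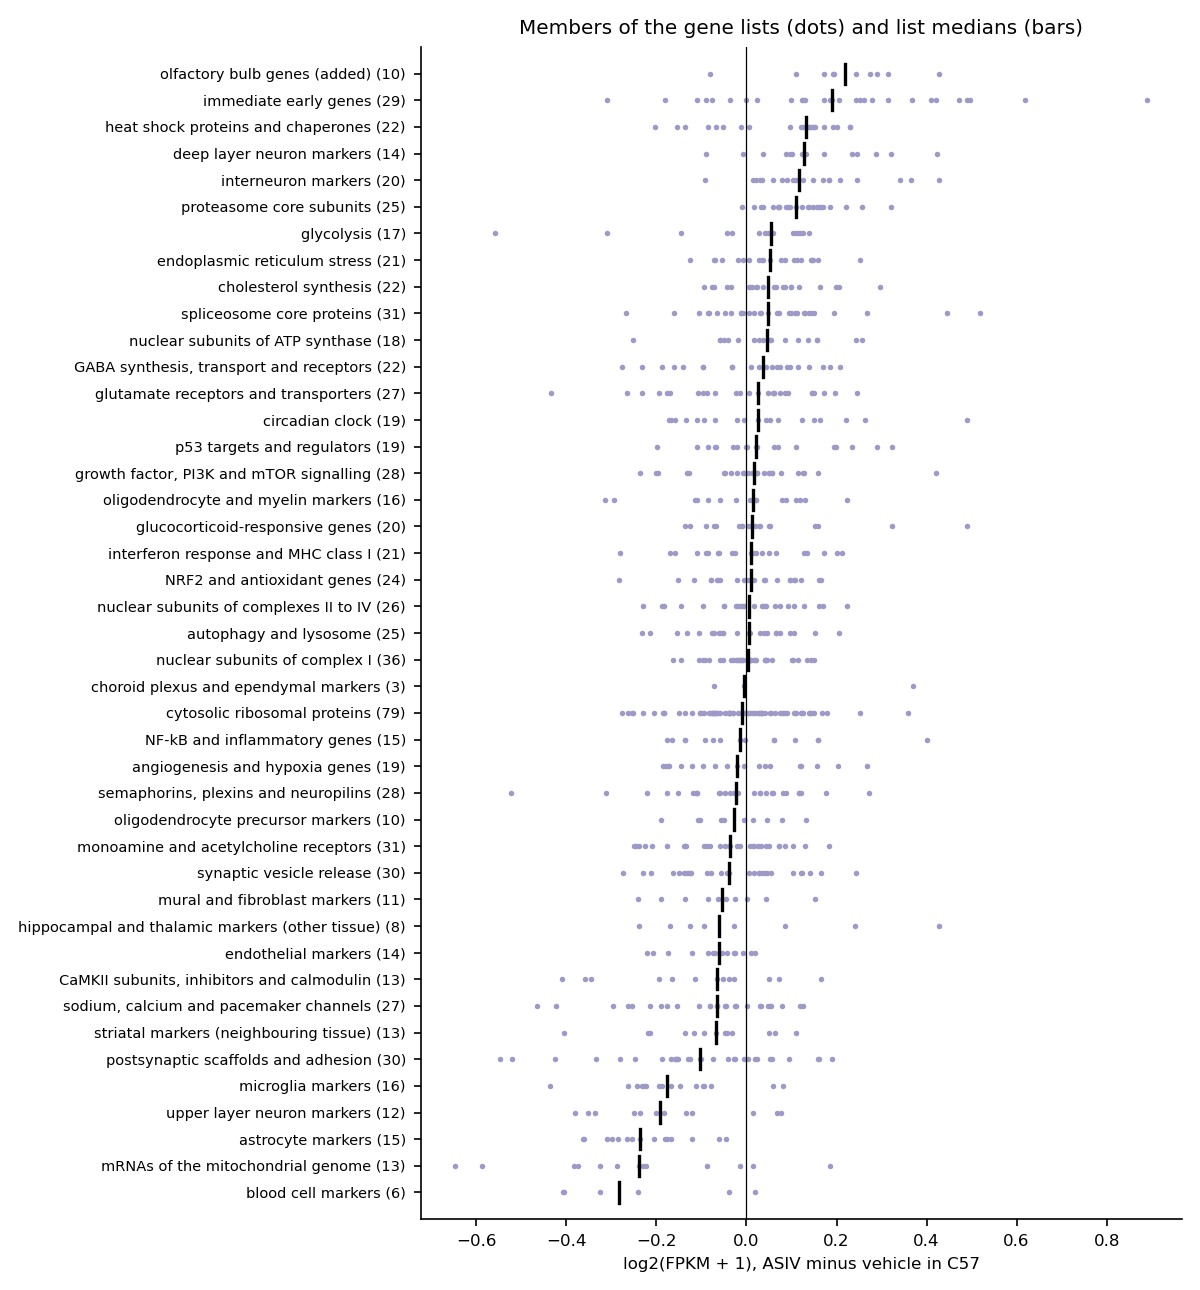
Log2(FPKM + 1) difference, ASIV minus vehicle in C57, of every tested member of 43 gene lists (dots, number of members in brackets) and the list medians (bars), ordered by median. Medians run from -0.28 for blood cell markers to 0.22 for the added olfactory bulb genes, and 0 members of any list passed the test.

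Astrocyte markers were the most uniform list in direction. All 15 had a log2 difference below 0 (49.2% of all genes did), 8 lay without overlap below vehicle (6.98% of all genes did), 0 were called and the median was -0.24. In bulk tissue fewer cells of a type and less RNA per cell cannot be told apart. Aldoc, the brain aldolase enriched in astrocytes, was at 270.2, 283.5 and 302.3 FPKM under vehicle and at 229.8, 226.0 and 233.7 FPKM under ASIV (-0.31 ± 0.08, adjusted p = 0.721). Atp1b2, a sodium pump subunit, was at 106.6, 115.8 and 117.6 FPKM and at 93.7, 97.4 and 87.6 FPKM (-0.28 ± 0.08). Ntsr2, a neurotensin receptor, and Acsbg1, an acyl-CoA synthetase, stood at -0.36 ± 0.11 and -0.30 ± 0.09.

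The astrocyte markers summed to 1557, 1659 and 1788 FPKM under vehicle and to 1520, 1413 and 1313 FPKM under ASIV, so the groups did not overlap but C57 vehicle replicate 1 and C57 ASIV replicate 1 were close. The highest and the lowest of these sums belong to the 2 libraries with the highest striatal levels. Without both of them the list median was -0.11, and over all settings it ran from -0.31 to -0.11.

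Microglia markers had 14 of 16 below 0, 5 without overlap (6.98% of all genes were) and a median of -0.18. Cd68, a lysosomal protein of phagocytes, was at 5.16, 5.47 and 6.36 FPKM under vehicle and at 3.15, 4.05 and 4.64 FPKM under ASIV (-0.44 ± 0.12). P2ry12, a purine receptor of resting microglia (-0.23 ± 0.09), and Cx3cr1, the fractalkine receptor (-0.24 ± 0.09), overlapped between groups, and Laptm5 stood at -0.19 ± 0.08. The list median was -0.11 without C57 vehicle replicate 3 and -0.06 without both replicates 3. The oligodendrocyte and myelin list had 9 of 16 above 0 (median 0.015), a value that rested on C57 ASIV replicate 3: its median deviation from the mean of the 6 libraries was 0.43 there and -0.20 and -0.19 in C57 ASIV replicates 1 and 2, and without replicate 3 the list median was -0.19. Within it the lineage factors Olig2 (-0.31 ± 0.08) and Olig1 (-0.29 ± 0.11) lay without overlap below vehicle. Endothelial markers had 12 of 14 below 0 (median -0.062, and -0.0099 without C57 vehicle replicate 3), with 0 without overlap.

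The lists of neuronal layers lay on different sides of 0. Upper layer markers had 9 of 12 below 0 (median -0.19), with Pou3f3 (-0.35 ± 0.09), Lhx2 (-0.38 ± 0.13) and Cux1 (-0.24 ± 0.10), all transcription factors, without overlap. The upper layer median was -0.12 without C57 ASIV replicate 3 and -0.10 with library weights. Deep layer markers had 12 of 14 above 0 (median 0.13), led by Crym, a thyroid hormone binding protein, at 0.42. This rested on C57 ASIV replicate 3: without it the median was 0.0032. Of the 14, only Crym lay without overlap above vehicle. Interneuron markers had 19 of 20 above 0 (median 0.12, and 0.07 without C57 ASIV replicate 2). Only 1 of the 20 lay without overlap above vehicle (6.14% of all genes did). Sst, the somatostatin gene, was at 275.8, 271.6 and 322.7 FPKM under vehicle and at 313.3, 356.9 and 462.9 FPKM under ASIV (0.36 ± 0.14), with overlap, and its difference was 0.21 without C57 ASIV replicate 3.

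Several interneuron markers are also made in the olfactory bulb and varied with it by library. Calb2, the calretinin gene, which is in both lists, was at 18.1, 39.0 and 16.3 FPKM under vehicle and at 57.6, 42.7 and 11.5 FPKM under ASIV. With the olfactory bulb genes as a covariate the interneuron median was 0.09. The part of these genes in the interneuron values beyond that was not tested.

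Genes of protein turnover lay above 0 with small values. Proteasome core subunits had 24 of 25 above 0, 5 without overlap (6.14% of all genes were) and a median of 0.11. Psmd14, a deubiquitinase of the regulatory particle, was at 17.6, 17.4 and 16.6 FPKM under vehicle and at 21.2, 19.3 and 25.2 FPKM under ASIV (0.32 ± 0.10). C57 ASIV replicate 3 was the highest library for the list, at a summed 964.4 FPKM where the other 5 lay between 746 and 809.3, and without that library the median was 0.0027, and without both replicates 3 it was -0.0032. Heat shock proteins and chaperones had 15 of 22 above 0 (median 0.13), with Hspd1, the mitochondrial chaperonin, at 0.23 ± 0.10. That median was 0.03 without C57 ASIV replicate 3 and 0.01 without both replicates 3.

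Cholesterol synthesis genes had 17 of 22 above 0 and a median of 0.049, which was 0.0028 without C57 ASIV replicate 3. Hmgcs1, an early enzyme of the pathway, was at 48.6, 46.8 and 51.2 FPKM under vehicle and at 51.95, 58.5 and 59.2 FPKM under ASIV (0.20 ± 0.08). Its groups did not overlap, and it did not pass. Cytosolic ribosomal proteins had 36 of 79 above 0 (median -0.0093), NRF2 and antioxidant genes 14 of 24 (median 0.0099), NF-kB and inflammatory genes 6 of 15 (median -0.015), interferon and MHC class I genes 11 of 21 (median 0.010) and glucocorticoid-responsive genes 12 of 20 (median 0.011).

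The response in C57 was set against that in BTBR, which uses 6 other libraries. In a fit of those libraries alone, 2258 genes differed between BTBR ASIV and BTBR vehicle (16.6% of genes tested), 1111 higher under ASIV and 1147 lower. Those that rose in BTBR had a median log2 difference of 0.66 there and of -0.03 in C57, and those that fell -0.60 and 0.03. None of the 2258 was called in C57, and for 1084 and 1133 of them the C57 interval excluded a 2-fold change.

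The difference between the strains was tested as an interaction over all 12 libraries, which called 1939 genes (14.3%), with the C57 response the higher in 1000 and the lower in 939. Of the genes that rose in BTBR 786 (70.75%) were among them, and of those that fell 834 (72.71%). These genes were chosen by the BTBR difference that enters the interaction, so high shares follow from the choice. All 13 mitochondrial mRNAs were called in the interaction, with a median of 3.72 in BTBR and of -0.24 in C57. Their mean share of summed FPKM was lowest in BTBR vehicle, at 1.4%. It was 9.3% in BTBR ASIV, 12.7% in C57 vehicle and 11.4% in C57 ASIV. The genes of smallest p in the interaction, after the same exclusions by symbol, were Msrb2, Praf2, Syn1, Nr1d1 and Cd68.

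Syn1, which encodes the vesicle protein synapsin I, was at 251.3, 233.2 and 221.6 FPKM in C57 vehicle and at 189.1, 227.5 and 230.5 FPKM in C57 ASIV. In BTBR it was at 72.7, 65.8 and 68.0 FPKM under vehicle and at 181.1, 181.9 and 154.0 FPKM under ASIV. The interaction was -1.44 ± 0.15 (SE, adjusted p = 0.000515). Msrb2, a mitochondrial methionine sulfoxide reductase, stayed between 11.6 and 12.4 FPKM in all 6 C57 libraries (0.01 ± 0.07), against a BTBR difference of -1.06. Nr1d1, the clock repressor REV-ERB alpha, stood at -0.17 ± 0.08 in C57 and at 1.31 in BTBR.

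The 20 genes named first in C57 were chosen on the C57 difference that the interaction also uses. Of these, 8 had a called interaction: Pin4, Cbln1, Snrpd1, Hcn2, Nfic, Scrt1, Dlgap3 and Fam107a. Hcn2 rose in BTBR by a log2 difference of 0.62 (adjusted p = 0.0398), and its interaction was -1.08 ± 0.19 (adjusted p = 0.00445). Outside those 20, Camk2a rose in BTBR by 0.52 (adjusted p = 0.0296), with an interaction of -0.93 ± 0.16. Aldoc rose there by 0.63, with an interaction of -0.94 ± 0.19.

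For Camk2n2 the strains were not shown to differ. Its log2 difference was -0.36 in C57 and -0.49 in BTBR, neither of which passed, and the interaction was 0.14 ± 0.25 (adjusted p = 0.763). For Nr4a3 the interaction was 0.47 ± 0.47 (adjusted p = 0.554), with BTBR ASIV replicate 2 at 11.8 FPKM and the other 2 BTBR ASIV libraries at 3.68 and 3.23 FPKM.

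**Figure D5:**
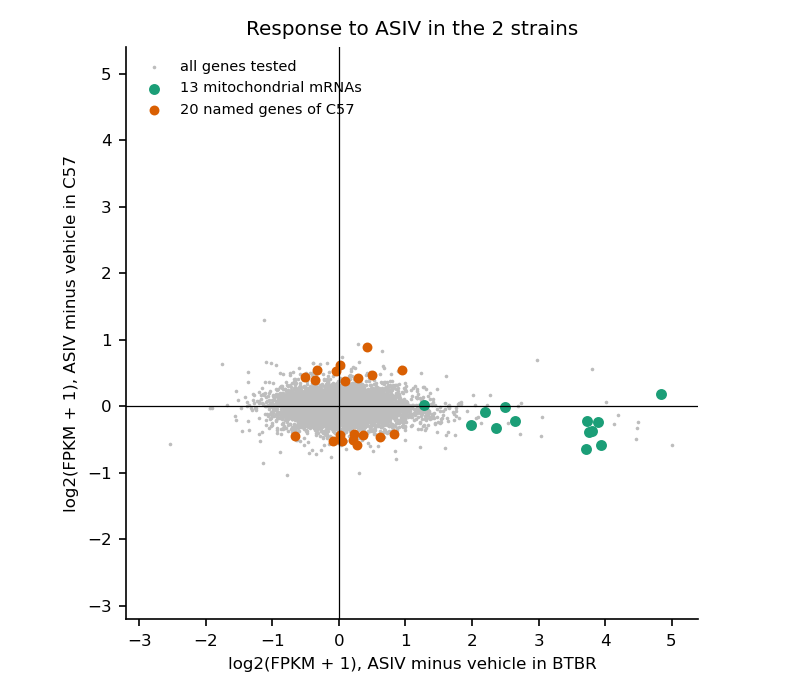
Log2(FPKM + 1) difference, ASIV minus vehicle, in C57 (y) against BTBR (x), both axes on the same scale, with 1 point per gene. The 13 mitochondrial mRNAs lie between 1.28 and 4.84 in BTBR and between -0.65 and 0.18 in C57, and the 20 named C57 genes lie within 1 of 0 in both strains.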

How the data were processed

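Total RNA of mouse mPFC was extracted with Trizol and sequenced from standard Illumina libraries, per the labels. The authors deposited FPKM per gene (17283 genes, 0 columns of other samples). HISAT2 2.0.5 and mm10 are named in the submitters' processing notes; the counter, annotation and strand of counting are not given in these sources, so overlapping and antisense genes cannot be told apart. Of the identifiers 17265 matched GENCODE M21. Multiplied by its exon length, 97.6 to 97.8% of values under 50 fragments were whole within 0.02 in the C57 libraries, which gave the depth.

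Values were analysed as log2(FPKM + 1) by limma (version 3.58.1, under R 4.3.3), using lmFit and a trended, robust eBayes step on the 6 C57 libraries, which share no library with BTBR. The interaction used 4 group means of 12 libraries. Benjamini-Hochberg adjustment ran over all 13586 genes, and a call needed an adjusted p under 0.05. Tables were prepared in Python 3.11.15 (pandas 2.3.3, numpy 2.4.6) and plots drawn with matplotlib 3.10.9. Levels are per length. Replicates differed by more than counting error (mean chi-square per gene 8.94 to 32.9), and no 2 libraries were identical.

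Genes were named by rule: the 10 higher and 10 lower with the largest difference among called genes without overlap, filled up by the smallest p (no Gm, Rik, -ps or mt- symbols); up to 4 members per list by smallest p; Camk2n2, Camk2n1, Camk2a, Camk2b and the 13 mitochondrial mRNAs; and 5 genes of smallest p in the interaction. The comparison, the 42 lists and the rule were chosen with earlier results of these data known, and the olfactory bulb list, GC removal and regional alternatives after seeing the values. Not every gene the rule takes is printed. Alternatives covered pseudocounts of 0.1 and 0.5, the filter (none, or an FPKM of 5), scaling (TPM, median ratio, quantile, without mitochondrial genes), the 12-library fit, the replicate block, eBayes options, library weights, voom on recovered fragments and each library left out.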

Additional observations from a re-analysis of the deposited data

Results flagged for a closer look

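The response to ASIV differed between C57 and BTBR, by the interaction test over 12 libraries at an adjusted p under 0.05, in 39 of the genes named in the report. Each value is the C57 log2 difference minus the BTBR one. The test called 14.3% of all genes. Many named genes were chosen by a small p in C57 or in the interaction itself. A high number of calls among them follows in part from that choice, so it is not comparable with that share.

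The mitochondrial mRNAs gave -4.14 for mt-Nd2, -3.96 for mt-Nd1, -2.69 for mt-Nd3, -4.17 for mt-Nd4, -4.53 for mt-Nd4l, -1.26 for mt-Nd6 and -2.28 for mt-Nd5. The same mRNAs of other complexes gave -4.13 for mt-Cytb, -2.88 for mt-Co1, -2.51 for mt-Co2, -4.37 for mt-Co3, -4.65 for mt-Atp6 and -2.28 for mt-Atp8. Of nuclear mitochondrial genes, Atp5a1 gave 0.81 and Msrb2 1.07.

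Synaptic and neuronal genes gave -1.44 for Syn1, -1.94 for Praf2, -1.08 for Hcn2, -0.934 for Camk2a, -0.671 for Cacnb3, -0.645 for Dlgap3, -0.979 for Shank1 and -0.621 for Shank3. The transcription factors Scrt1, Nfic, Cux1 and Nr1d1 gave -0.721, -0.795, -0.572 and -1.48. Sst gave 1.47 and Cbln1 0.757.

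Glial genes gave -0.938 for Aldoc, -1.24 for Atp1b2, -1.24 for Fam107a, -2.05 for Cd68, -1.87 for P2ry12 and -0.717 for Cx3cr1. Pin4 gave 0.567, Snrpd1 0.954, Psmd14 0.989 and Hmgcs1 1.06.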

How the results depend on the processing

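ASIV against vehicle in C57 gave 0 calls under 19 of 23 alternatives. Library weights and voom gave 1 each (Nr4a3), the olfactory bulb covariate 4 (mt-Th, Gm26833, Gm10736 and Nr4a3), and leaving out 1 library 0 to 2, the 2 being Gm49326 and Gm8121 without C57 ASIV replicate 1. Genes with an unadjusted p under 0.05 ran from 417 with the spread of all 12 libraries to 1841 with library weights. The genes whose interval excluded a 2-fold change numbered 8105 with an FPKM minimum of 5, which leaves 8235 genes to test, 12875 of 13586 with a pseudocount of 0.1, 12654 of 13569 with voom, 13045 with TPM scaling, and 13319 to 13337 with 1 library left out. Interaction calls ran from 1166 to 2178 with 1 library left out, and were 1248, 1166, 1255 and 1218 without C57 vehicle replicates 1, 2 and 3 and C57 ASIV replicate 1. The difference in mitochondrial share ran from -1.88 to -0.244 percentage points with 1 library left out. Where 1 library was left out, a group of 2 was taken to vary like the other.

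With the replicate number as a block, 0 genes were called, 13472 intervals excluded a 2-fold change and 1862 interactions passed. Deviations of same-numbered C57 libraries correlated at -0.17, 0.20 and 0.12 for replicates 1, 2 and 3, so the numbers were not taken to pair the libraries.

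Of 1671 values of 73 named genes under the alternatives, 1632 had the same direction and call, 3 passed (Nr4a3) and 36 reversed in sign, in 12 genes that were all uncalled; the cause was not tested. Scaled to TPM, Camk2b stood at 0.0304, mt-Co2 at 0.0431 and Ttr at 0.00125; this scaling also moved the median of all genes to 0.056. Quantile normalization put mt-Co1 at 0.292, Ttr at 0.00504 and Msrb2 at -0.00523. Msrb2 was at -0.00118 with median ratios, at -0.00298 without mitochondrial genes in the scaling and at -0.0181 with library weights, which put mt-Nd4l at 0.541. Without both replicates 3, mt-Atp6 stood at -0.302 and Msrb2 at -0.00756. With the striatal covariate Ttr was at 0.0132 and mt-Co2 at 0.0122, and with the olfactory one Ttr was at 0.0207, mt-Atp8 at 0.00844 and mt-Co2 at 0.0522. With the GC trend removed mt-Nd6 was at -0.0931. With 1 library left out, the values ran from -0.109 to 0.131 for Ttr, from -0.0144 to 1.1 for Calb2, from -0.428 to 0.00876 for mt-Cytb, from -0.646 to 0.0218 for mt-Nd4, from -1.69 to 0.254 for mt-Nd4l, from -0.147 to 0.731 for mt-Atp6, from -0.416 to 0.289 for mt-Atp8, from -0.0722 to 0.0815 for mt-Nd6, from -0.241 to 0.174 for mt-Co2 and from -0.0175 to 0.0261 for Msrb2.

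Of 43 lists, 5 had a median above 0 and 8 one below 0 under every setting. The settings reuse the same libraries, and several of these medians came close to 0. The nearest were 0.0028 for cholesterol synthesis and 0.0032 for deep layer markers. Below 0 they were -0.0043 for the CaMKII list and -0.0062 for the sodium, calcium and pacemaker channels. With 3 libraries a group, differences well under 1.5-fold were within the intervals of most genes, and regional genes varied within groups.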
